A study of Mus musculus with 11 samples.

Results

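The AP-2 genes Tfap2a, Tfap2b and Tfap2c were followed across mouse embryonic retinas with single or joint loss of Six3 and Six6. They were taken as the 3 rows of a raw count table with these names, out of 13498 genes in all, and were chosen by their counts in the double mutant, where Tfap2c lay above and Tfap2a and Tfap2b below WT. Their values in comparisons with the double mutant are therefore given as a description, with no test. AP-2 proteins are transcription factors that bind GC-rich palindromes as homodimers or heterodimers, so paralogs in the same cell can act on the same sites. In the developing mouse eye, Tfap2a is expressed in the surface ectoderm and lens lineage as well as in the retina, and Tfap2a and Tfap2b are required together in postmitotic horizontal and amacrine cells. Tfap2a and Tfap2b also act in neural crest, and Tfap2c is best known from trophoblast, germ cells and mammary epithelium and is also expressed in amacrine cells.

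Total RNA from retinas at E13.5 was sequenced after ribosomal RNA removal, with a pair of retinas in each of 11 libraries. All embryos were of the NMRI strain, carried Six3 alleles flanked by loxP sites (Six3F/F), and came from dams given tamoxifen at E10.5 and E11.5. DKO embryos (3 libraries) were Six3F/F; CAGGCre-ERTM; Six6–/–, and Six3KO embryos (3 libraries) were Six3F/F; CAGGCre-ERTM; Six6+/+. Six6KO embryos (2 libraries, another having been removed by the authors for high duplication) were Six3F/F; Six6–/– and WT embryos (3 libraries) Six3F/F; Six6+/+, both without Cre. CAGGCre-ERTM is a Cre recombinase under a widely active promoter, so recombination need not be limited to the retina, and because it was present only in DKO and Six3KO its own effect cannot be told apart from loss of Six3. Nothing ties a library to a litter, so the tests measure the spread between these retina pairs.

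Total counts per library lay between 11965016 and 12659540 reads in DKO, 9786661 and 16403191 in Six3KO, 8867708 and 9166054 in Six6KO, and 7807744 and 12505379 in WT. Levels are given as counts per library total scaled by TMM to a common depth (CPM). Six3 was at 56.2 to 98.2 CPM in DKO, 30.3 to 75.9 CPM in Six3KO, 142 to 307 CPM in Six6KO and 164 to 299 CPM in WT. Six6 was at 52.8 to 99.8 CPM in DKO, 168 to 339 CPM in Six3KO, 76.8 to 131 CPM in Six6KO and 225 to 340 CPM in WT, so reads of a mutated locus remained in every mutant group. The 12 retinal genes used to check the tissue, among them Rax and Pax6, had summed levels of 2730 to 3801 CPM in DKO and 3201 to 4923 CPM in WT, and none was at 0 in any library.

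In GENCODE vM21 (GRCm38) all 3 members are protein-coding genes. Tfap2a lies on chromosome 13 at 40715302 to 40738376 on the minus strand (ENSMUSG00000021359.16), and its exons share 718 bases with exons of 3 genes on the opposite strand. No source used here gives the strand setting of the authors' counting, so reads from those genes cannot be told apart from Tfap2a reads in the shared bases. Tfap2b lies on chromosome 1 at 19208914 to 19238576 on the plus strand (ENSMUSG00000025927.13), with its paralog Tfap2d 42567 bases upstream. Tfap2c lies on chromosome 2 at 172549593 to 172558622 on the plus strand (ENSMUSG00000028640.11), and neither Tfap2b nor Tfap2c shares exon bases with another gene.

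The promoters of the paralogs that were lower in DKO are shown because Six3 and Six6 are homeodomain proteins and both genes were low in DKO. Sequences are the 250 bases before a RefSeq start (GRCm38.p6), read 5′ to 3′ on the gene's own strand, for chr13:40734921-40735170 (minus strand) and chr1:19211804-19212053 (plus strand). Capitals mark the homeodomain core TAATTA, which was found once in the Tfap2a window, 32 bases before the start, and not in the Tfap2b window.
Tfap2a: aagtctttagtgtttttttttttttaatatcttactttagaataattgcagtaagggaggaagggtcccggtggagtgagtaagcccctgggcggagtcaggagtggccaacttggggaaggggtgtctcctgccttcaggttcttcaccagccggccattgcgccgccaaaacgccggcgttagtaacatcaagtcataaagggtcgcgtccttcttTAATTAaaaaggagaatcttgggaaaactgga
Tfap2b: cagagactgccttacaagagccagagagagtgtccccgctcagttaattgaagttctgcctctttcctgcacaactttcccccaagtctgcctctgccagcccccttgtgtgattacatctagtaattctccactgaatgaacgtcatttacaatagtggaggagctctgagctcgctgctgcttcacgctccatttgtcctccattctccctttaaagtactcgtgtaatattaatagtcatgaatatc
TAATTA reads the same on both strands and occurred in 4.84% of 32851 promoter windows of this length. The letters TGATAC or their reverse complement GTATCA, the core of motifs bound by Six3 and its relatives, were in 4.64% of windows, and the AP-2 palindrome GCCNNNGGC, which also matches itself on the other strand, in 13.7%. Neither was present in the windows shown. RefSeq lists another Tfap2a start with no match to any of these motifs. GENCODE vM21 also has starts upstream of the windows shown, at 40738376 for Tfap2a and at 19208914 for Tfap2b. Of the 3 members 2 had promoter entries, and Tfap2c had none.

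Tfap2a, the AP-2 paralog of surface ectoderm, neural crest and early horizontal and amacrine cells, had its lowest levels in DKO retinas. Its level was 0.738, 1.82 and 2.46 CPM in the DKO libraries, from 9, 22 and 31 reads, against 12.5, 7.97 and 34.7 CPM in Six3KO, 12.1 and 9.74 CPM in Six6KO and 22.8, 5.90 and 16.9 CPM in WT. Every DKO library lay below every library of the other groups, while the Six3KO, Six6KO and WT libraries overlapped. The log2 difference of DKO from WT was −3.18 ± 0.70 (SE), a 9.06-fold lower level. It was −3.45 ± 0.71 from Six3KO, or −2.60 without Six3KO library rh026, and −2.69 ± 0.74 from Six6KO.

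Tfap2b, the paralog that shares the horizontal and amacrine role and is also made by neural crest and periocular cells, was also lowest in DKO. It was at 8.93, 10.02 and 19.1 CPM in DKO, against 104, 33.02 and 160 CPM in Six3KO, 94.8 and 75.5 CPM in Six6KO and 89.2, 37.0 and 262 CPM in WT. Again the DKO libraries lay below all others, and the spread within WT was wide. The log2 difference was −3.34 ± 0.79 from WT, a 10.2-fold lower level, −2.96 ± 0.77 from Six3KO and −2.74 ± 0.82 from Six6KO. Without WT library rh024, the highest of its group, the difference from WT was −2.31. In bulk tissue, fewer cells of a type and less RNA per cell cannot be told apart, for this gene and for each gene below.

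Tfap2c lay in the opposite direction. It reached 84.0, 108 and 61.3 CPM in DKO, against 6.14, 6.72 and 7.97 CPM in Six3KO, 12.4 and 7.81 CPM in Six6KO and 8.52, 2.78 and 4.59 CPM in WT. The lowest DKO library was above every library of the other groups. The log2 difference was 3.96 ± 0.39 from WT, a 15.6-fold higher level, 3.61 ± 0.38 from Six3KO and 3.06 ± 0.44 from Six6KO.

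Among all 13292 genes tested, 1.29% were called in DKO against WT by edgeR's quasi-likelihood test at a Benjamini-Hochberg adjusted p under 0.05, 0.655% as higher and 0.639% as lower. All DKO libraries lay above all WT libraries for 9.03% of genes and below them for 8.46%. Tfap2a and Tfap2b were among the genes without overlap on the low side and Tfap2c on the high side. This comparison was used to choose the genes, so for the members the shares are printed only for scale. For the gene lists described further on, 5.47% of all genes were higher and 7.53% lower at an unadjusted p under 0.05 in the same comparison, and DESeq2 called 2.33% as higher and 3.48% as lower.

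**Figure D1:**
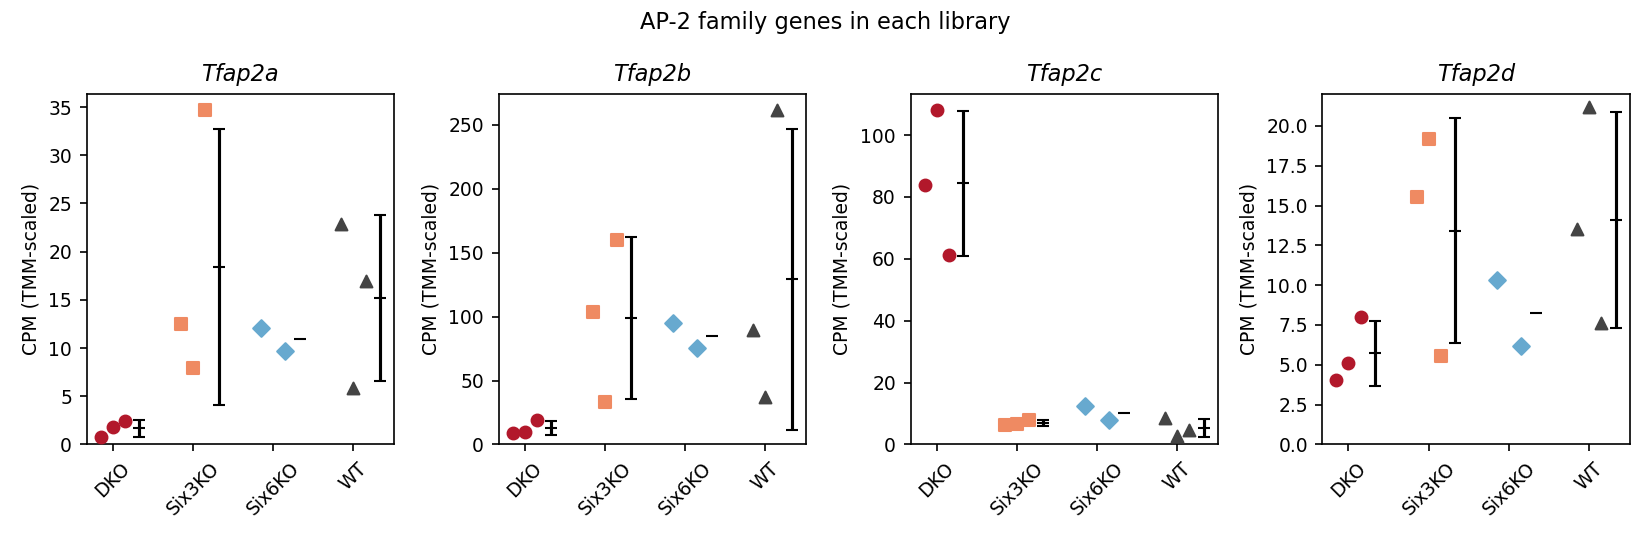
Levels of Tfap2a, Tfap2b, Tfap2c and the neighbouring paralog Tfap2d in CPM (TMM-scaled, linear axes from 0), with a point for each library and a bar for the mean ± SD beside it (mean only for the 2 Six6KO libraries). DKO points lie lowest for Tfap2a and Tfap2b and highest for Tfap2c (61.3 to 108 CPM), and the groups overlap for Tfap2d.

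The genes were chosen by their direction in DKO against WT, and single loss of either factor was tested against WT. These tests share their WT libraries with the comparison that chose the genes, so they are not fully independent of that choice. In Six3KO against WT the log2 difference was 0.27 ± 0.62 for Tfap2a (95% interval −1.13 to 1.66), −0.39 ± 0.71 for Tfap2b (−1.98 to 1.21) and 0.36 ± 0.38 for Tfap2c (−0.49 to 1.21). None passed the test (adjusted p = 0.999879 for each in edgeR's quasi-likelihood test), in a comparison in which 0.00752% of genes were called. In Six6KO against WT the differences were −0.49 ± 0.71 for Tfap2a (−2.08 to 1.11), −0.60 ± 0.81 for Tfap2b (−2.42 to 1.22) and 0.90 ± 0.42 for Tfap2c (−0.03 to 1.83), none of which passed either (adjusted p = 0.991 for each in edgeR's test). In that comparison edgeR called 0 of all genes, with 518 (3.90%) at an unadjusted p under 0.05, and DESeq2 called 2 (0.0150%). Of the 3 members, DESeq2 called 0 in each single mutant, and 0 had an unadjusted p under 0.05. The intervals for Tfap2a and Tfap2b reach beyond 1 log2 unit on both sides of 0, so a change of that size was not detectable at this spread.

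Group means put DKO at one end for each member, and the order of the other groups was not resolved. Tfap2a averaged 1.67 ± 0.87 CPM in DKO, 18.4 ± 14.3 CPM in Six3KO, 10.9 CPM in Six6KO and 15.2 ± 8.59 CPM in WT (SD, n = 3, 3, 2 and 3). Tfap2b averaged 12.7 ± 5.59 CPM in DKO, 98.8 ± 63.4 CPM in Six3KO, 85.2 CPM in Six6KO and 129 ± 118 CPM in WT. Tfap2c averaged 84.5 ± 23.4 CPM in DKO, 6.94 ± 0.93 CPM in Six3KO, 10.1 CPM in Six6KO and 5.29 ± 2.94 CPM in WT. For all 3 genes the neighbours in the order of Six3KO, Six6KO and WT differed by less than the larger of their SDs. Tfap2c in Six6KO came closest to that limit, with 1 library at 12.4 CPM, above every Six3KO and WT library, and the other at 7.81 CPM, among them.

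Tfap2d, the paralog next to Tfap2b and best known from the midbrain and retina, is no member and was tested in every comparison. It was at 4.02, 5.13 and 8.01 CPM in DKO, 15.5, 19.2 and 5.55 CPM in Six3KO, 10.3 and 6.205 CPM in Six6KO and 13.52, 21.2 and 7.65 CPM in WT. Its libraries overlapped between all groups compared. In DKO against WT the log2 difference of −1.30 ± 0.51 did not pass edgeR's test (adjusted p = 0.301). The fifth paralog, Tfap2e, was not analysed here.

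Read counts of different genes can be set side by side only per length, so CPM was divided by the length of all exons in GENCODE vM21, 4903 bases for Tfap2a, 6338 for Tfap2b, 3679 for Tfap2c and 1954 for Tfap2d. On this scale Tfap2c was the most abundant of the 4 genes in DKO, at 23.0 ± 6.37 CPM per kb, followed by Tfap2d at 2.93 ± 1.05, Tfap2b at 2.00 ± 0.88 and Tfap2a at 0.341 ± 0.177. In WT the means were 20.4 ± 18.6 CPM per kb for Tfap2b, 7.22 ± 3.47 for Tfap2d, 3.10 ± 1.75 for Tfap2a and 1.44 ± 0.80 for Tfap2c. The order of Tfap2b and Tfap2d was not the same in all WT libraries, with Tfap2b at 5.84 and Tfap2d at 10.8 CPM per kb in rh023 and Tfap2b at 41.3 in rh024. Tfap2c was first in every DKO library and last in every WT library.

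The share of Tfap2c in the summed per-length level of the 4 genes was 68.6% to 86.5% in DKO libraries, against 5.81% to 9.88% in Six3KO, 11.1% to 12.9% in Six6KO and 2.50% to 8.28% in WT. Tfap2b held 4.65% to 12.4% in DKO, against 28.2% to 67.6% in Six3KO, 57.4% to 62.1% in Six6KO and 31.3% to 82.7% in WT. The ratio of Tfap2c to Tfap2b per length was 16.2, 18.6 and 5.53 in DKO, 0.102, 0.351 and 0.0860 in Six3KO, 0.226 and 0.178 in Six6KO and 0.165, 0.129 and 0.0302 in WT. It was above 1 in all DKO libraries and below 1 in all others. The summed level itself overlapped between the groups, at 28.2 ± 5.09 CPM per kb in DKO, 28.1 ± 9.40 in Six3KO, 22.6 in Six6KO and 32.2 ± 16.1 in WT. The ratio of Tfap2b to Tfap2a, both lower in DKO, also overlapped, at 9.37, 4.25 and 6.01 in DKO and 3.02, 4.85 and 11.9 in WT.

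**Figure D2:**
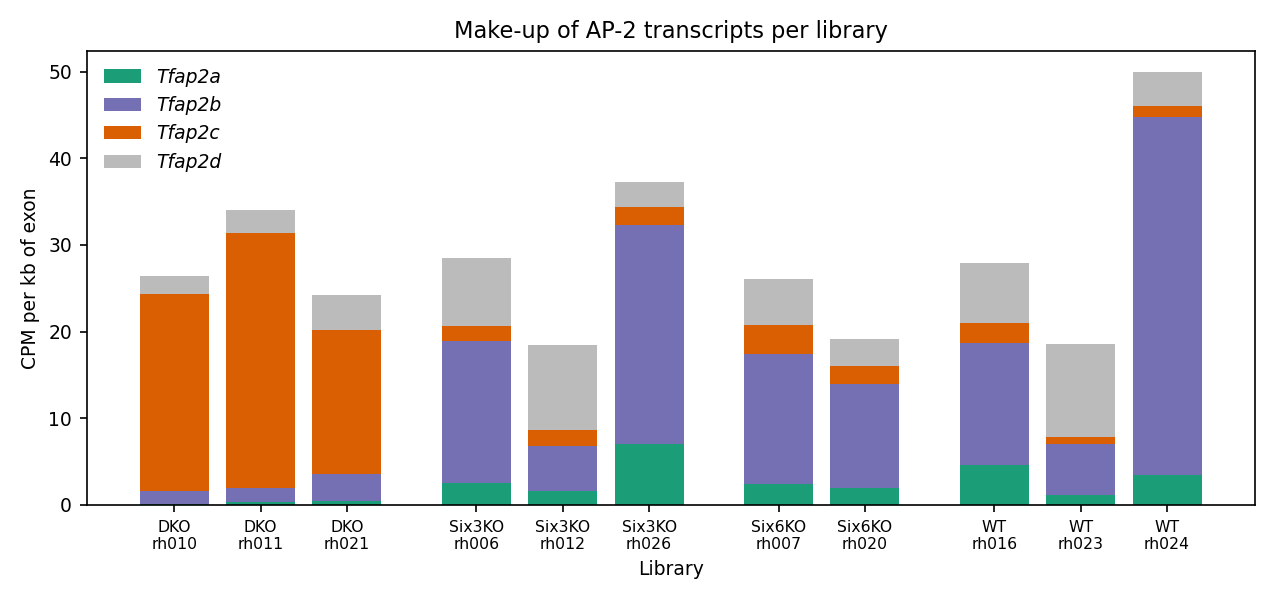
Stacked bars of Tfap2a, Tfap2b, Tfap2c and Tfap2d in CPM per kb of exon for each of the 11 libraries, from DKO on the left to WT on the right. Tfap2c makes up 68.6% to 86.5% of the DKO bars and 2.50% to 8.28% of the WT bars, while the bar heights of the groups overlap.

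Across the 11 libraries, which share the group differences that chose the genes, Tfap2a and Tfap2b varied together (Pearson r = 0.93, Spearman rho = 0.92, on log2 CPM). With group means removed r was still 0.77, so the 2 genes also ran together among libraries of one genotype. Tfap2c was inversely related to Tfap2a over all libraries (r = −0.78, rho = −0.45). With group means removed this turned to r = 0.52, and for Tfap2c and Tfap2b it went to 0.20 with group means removed, against −0.78 over all libraries. The inverse relation of Tfap2c to Tfap2a and Tfap2b was thus a difference between DKO and the rest and was not seen within groups. For Tfap2c and Tfap2d r was −0.67 over all libraries and −0.30 with group means removed. These correlations are descriptions of 11 libraries.

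Tfap2a and Tfap2b are also made by tissues that border the retina, so lists of markers of those tissues were examined. All 18 surface ectoderm genes tested, of 20 listed, had negative log2 differences in DKO against WT (median −2.69, against −0.00 over all genes), and 2 fell: Grhl3, an epidermal transcription factor, by 2.81 ± 0.44 (adjusted p = 0.0236 in edgeR's test) and St14, an epithelial membrane protease, by 2.98 ± 0.60 (adjusted p = 0.0486). DESeq2 called 10 of the 18 as lower, against 3.48% of all genes. All 20 periocular mesenchyme genes were also below 0 (median −3.95), and 1 passed, Col1a1 of the fibrillar collagens, which fell by 4.51 ± 0.86 (adjusted p = 0.0475). DESeq2 called 14 of these as lower. Each call was lost in several fits with 1 library left out. In such fits the log2 differences were −3.08 to −2.45 for Grhl3, −3.21 to −2.61 for St14 and −4.94 to −4.05 for Col1a1. Without one of DKO rh010 and rh011, Six3KO rh006 or WT rh016 and rh024, Grhl3 had an adjusted p of 0.0505 to 0.112 in edgeR's test. By the same test and in the same fits, adjusted p was 0.0856 to 0.238 for St14 and 0.0816 to 0.218 for Col1a1. St14 was also lost without DKO rh021 (0.107), WT rh023 (0.0741) or either Six6KO library (0.0718 and 0.0724), and Col1a1 without DKO rh021 (0.105) or WT rh023 (0.0636).

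The summed level of the surface ectoderm genes was 26.8 to 56.6 CPM in DKO, 68.0 to 471 in Six3KO, 198 to 205 in Six6KO and 63.8 to 484 in WT. That of the mesenchyme genes was 177 to 254 CPM in DKO, 486 to 4546 in Six3KO, 1964 to 2762 in Six6KO and 455 to 2365 in WT. DKO libraries were the lowest in both. Of the surface ectoderm genes Cldn6 and Cldn7, both claudins of epithelial junctions, were at 0 in 1 DKO library each, and of the mesenchyme genes the transcription factor Foxc2 was. Cldn7 and Foxc2 were also at 0 in WT library rh023. Lens genes (14, median −2.44) summed to 23.9 to 190 CPM in DKO, 258 to 20510 in Six3KO, 64.2 to 8875 in Six6KO and 54.5 to 1120 in WT. Pigment epithelium genes (8, median −3.06) summed to 99.9 to 341 CPM in DKO, 27.9 to 1604 in Six3KO, 507 to 1784 in Six6KO and 50.4 to 1611 in WT. No gene of the lens or pigment epithelium lists passed edgeR's test in DKO against WT. At an unadjusted p under 0.05, 2 lens and 3 pigment genes were lower, and DESeq2 called 0 and 1. In Six3KO against WT, where edgeR called no lens gene, DESeq2 called 2 as higher and 9 were higher at an unadjusted p under 0.05, against 0.120% and 2.29% of all genes.

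Tfap2a followed the surface ectoderm score, the mean log2 CPM of that list, closely (r = 0.95 over 11 libraries, 0.94 with group means removed), and the mesenchyme score nearly so (0.89 both ways). Tfap2b ran with the mesenchyme score (0.89, and 0.82 with group means removed) and the surface ectoderm score (0.88 and 0.68). Tfap2c had r = −0.61 with the surface ectoderm score over all libraries and 0.63 with group means removed. Neither Tfap2a nor Tfap2b followed the lens score once group means were removed (−0.02 and −0.01). With group means removed, all 3 members thus ran with the surface ectoderm score, Tfap2a most closely, and the sign for Tfap2c was opposite to that over all libraries. This was not particular to that score. With group means removed, the pigment epithelium score had r = 0.70 with Tfap2a, 0.64 with Tfap2b and 0.53 with Tfap2c. For the mesenchyme score and Tfap2c r was 0.63. The score of the retinal genes had r = −0.51, −0.29 and −0.46 with Tfap2a, Tfap2b and Tfap2c.

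Some libraries outside DKO were also low in these markers. WT library rh023 had a mesenchyme score 2.49 below the WT mean, inside the DKO range of −3.32 to −2.37, and a surface ectoderm score of −1.36, just above the DKO range of −2.96 to −1.65. In that WT library Tfap2a was at 5.90, Tfap2b at 37.0 and Tfap2c at 2.78 CPM. Six3KO library rh012, with scores of −1.87 and −1.29, had 7.97, 33.02 and 6.72 CPM. In both libraries Tfap2a and Tfap2b lay above every DKO library and Tfap2c below every one. Trp63, the p63 gene that defines stratified epithelia, was at 2.08 CPM in WT library rh023, inside the DKO range of 0.246 to 4.60 CPM. For 8 of 18 surface ectoderm and 8 of 20 mesenchyme genes, though, every DKO library lay below every WT library, rh023 included. Of all genes, 8.46% did so. How closely the tissue content of rh023 matched that of DKO was not tested.

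**Figure D3:**
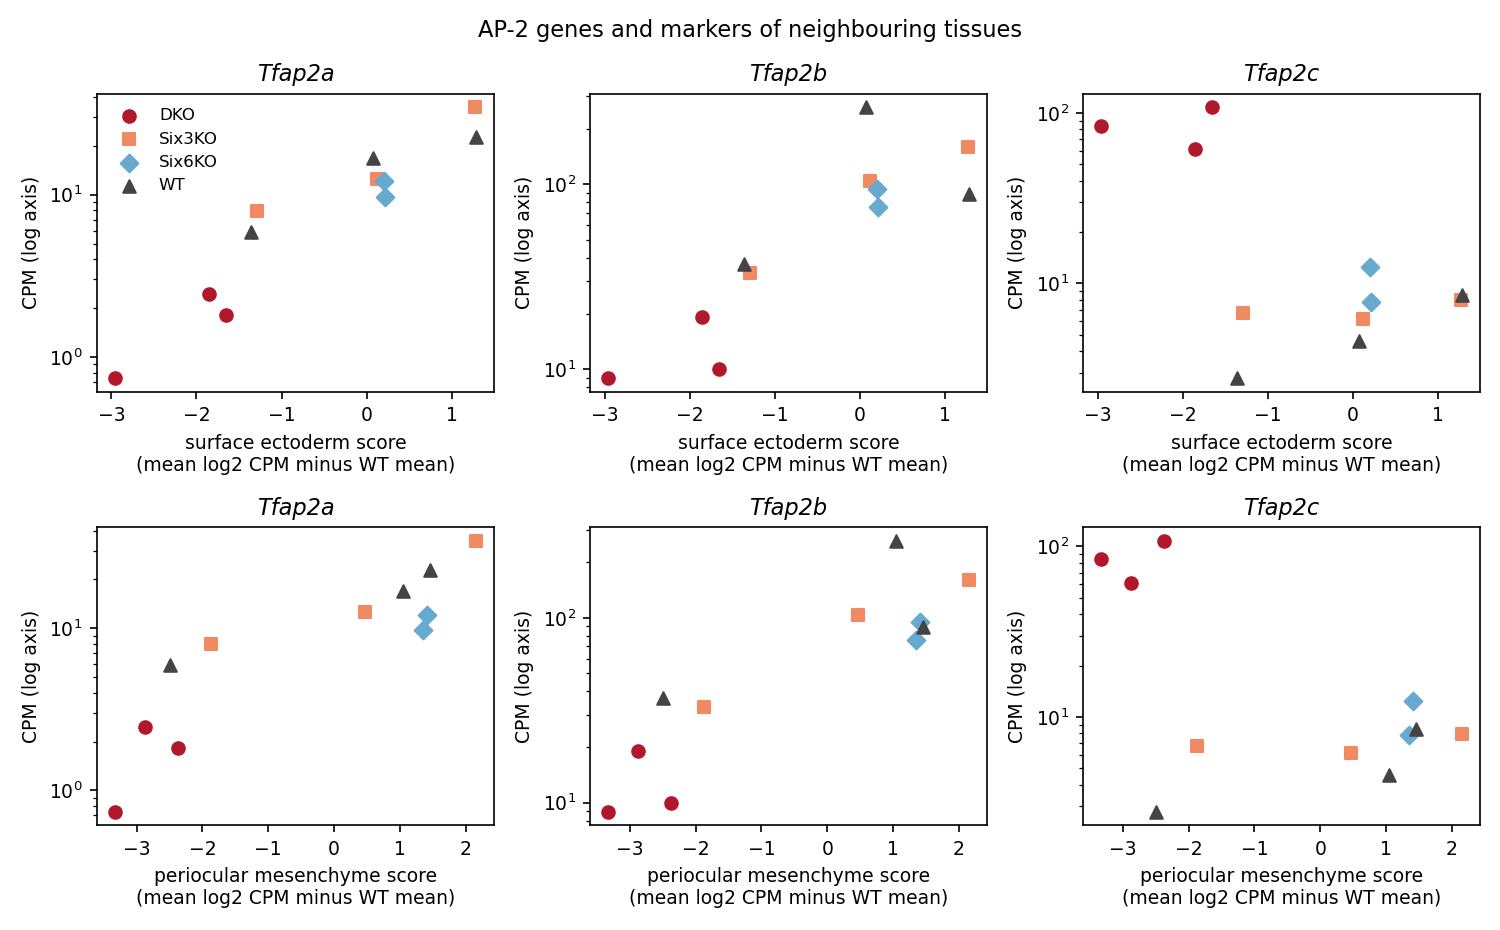
CPM of Tfap2a, Tfap2b and Tfap2c (log axis) in each library against the surface ectoderm score (upper row) and the periocular mesenchyme score (lower row), both as mean log2 CPM minus the WT mean. Across the 11 libraries Tfap2a and Tfap2b are higher where the scores are higher, while Tfap2c is high only in the 3 DKO libraries (61.3 to 108 CPM).

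With the surface ectoderm score as a term in the fit, the log2 difference of DKO from WT was −1.33 for Tfap2a, −1.74 for Tfap2b and 4.68 for Tfap2c. The mesenchyme score gave −1.55, −1.46 and 4.61, and both scores together, an addition made after seeing the data, gave −1.34, −1.68 and 4.66. The directions were the same in these fits, with smaller differences for Tfap2a and Tfap2b and a larger one for Tfap2c. The lens score left −3.18, −3.23 and 3.93. The scores themselves differ between DKO and the other groups, so how much of the Tfap2a and Tfap2b difference comes with these tissues was not tested.

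**Figure D4:**
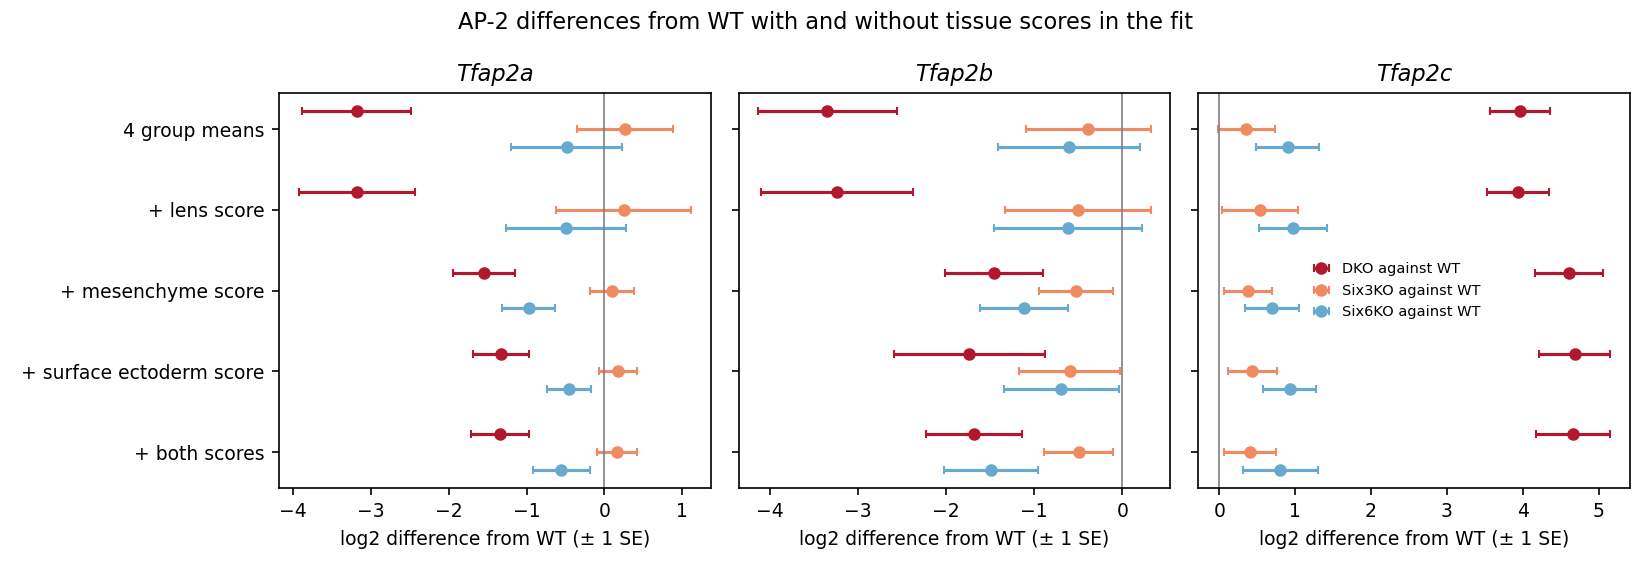
Log2 differences from WT (± 1 SE) of Tfap2a, Tfap2b and Tfap2c in DKO, Six3KO and Six6KO, from the fit of 4 group means and from fits with lens, mesenchyme or surface ectoderm scores added. With the mesenchyme or surface ectoderm score the DKO points move towards 0 for Tfap2a (to −1.55 and −1.33) and Tfap2b (to −1.46 and −1.74), and away from it for Tfap2c (to 4.61 and 4.68).

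Within the retina, Tfap2a and Tfap2b act in horizontal and amacrine precursors, downstream of Ptf1a in the mouse. None of the 17 transcription factors of these cells that were tested passed edgeR's test in DKO against WT (median log2 difference −0.18). At an unadjusted p under 0.05, 2 were higher and 4 lower, against 5.47% and 7.53% of all genes, and DESeq2 called 2 as higher and 3 as lower, against 2.33% and 3.48%. Foxn4, which acts upstream of Ptf1a, ran between 106 and 145 CPM in DKO and between 93.4 and 198 CPM in WT (−0.36 ± 0.40). Ptf1a, the determinant of horizontal and amacrine fate, was at 0.328, 0.497 and 2.22 CPM in DKO, 6.33, 7.29 and 3.43 in Six3KO, 4.53 and 2.57 in Six6KO and 5.70, 9.48 and 4.08 in WT. Its DKO libraries lay below all others, and its difference from WT was −2.64 ± 0.68 (adjusted p = 0.111 in edgeR's test). Prdm13, which acts downstream of Ptf1a, had 1.31, 0.994 and 5.79 CPM in DKO, against 17.9, 30.3 and 14.0 CPM in WT (−2.93 ± 0.75, adjusted p = 0.111). With the mesenchyme score in the fit, in which the differences of Tfap2a and Tfap2b were smaller, those of Ptf1a and Prdm13 were −3.25 (adjusted p = 0.0461 in edgeR's test) and −3.69 (adjusted p = 0.0417). Neither passed with the surface ectoderm score (adjusted p = 0.155 and 0.150 in edgeR's test) or with both scores (0.112 and 0.115), and both passed in DESeq2 (0.00428 and 0.00135). Both also passed without DKO library rh021, the highest of its group, with adjusted p = 0.0197 for Ptf1a and 0.0347 for Prdm13 in edgeR's test.

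Other factors of these cells had estimates on either side of 0. Bhlhe22, which acts in amacrine and bipolar subtypes, ranged from 61.8 to 92.4 CPM in DKO libraries, against 16.44 to 25.7 CPM in WT (1.88 ± 0.39, adjusted p = 0.0553 in edgeR's test). The horizontal cell factors Onecut1, Onecut2 and Onecut3 differed by −0.53, 0.23 and 0.19, and Prox1 by −1.08 ± 0.46. In Six3KO, Prox1 was at 141 and 118 CPM in libraries rh012 and rh026, where the lens genes summed to 20510 and 16415 CPM. It was at 38.0 CPM in rh006, where they summed to 258 CPM. The part of lens in the Prox1 values was not tested. In all, 2 of the 17 were above and 5 below WT with no overlap between libraries, against 9.03% and 8.46% of all genes. None of the 17 passed edgeR's test or DESeq2 in Six3KO or Six6KO against WT. At an unadjusted p under 0.05, 2 were higher in Six3KO and 1 was lower in Six6KO. Of all genes, 2.29% were higher in Six3KO at that threshold, and 3.90% reached it in either direction in Six6KO.

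Of 13 transmitter and surface genes of amacrine and horizontal cells 7 were tested. Calb1, the calbindin of horizontal cells, rose to 9.73 ± 2.02 CPM in DKO, against 1.35 ± 0.57 CPM in Six3KO, 0.696 and 1.07 CPM in Six6KO and 1.10 ± 0.49 CPM in WT, a log2 difference from WT of 3.12 ± 0.44 (adjusted p = 0.0146 in edgeR's test). Calb1 lost its call in the fit with the surface ectoderm score (adjusted p = 0.107 in edgeR's test) and without DKO library rh010 (0.0813), DKO library rh011 (0.0756) or WT library rh024 (0.0573). Its paralog Calb2, the calretinin of amacrine and ganglion cells, had 0.656 to 3.01 CPM in DKO, against 9.43 to 22.7 CPM in WT (−3.43 ± 0.71, adjusted p = 0.0534). Tac1, which encodes the precursor of substance P, had 8.40 to 31.5 CPM in DKO, against 0.637 to 5.31 CPM in WT (2.65 ± 0.68, adjusted p = 0.115). Of the 7 genes, 3 lay above and 3 below WT with no overlap between libraries, against 9.03% and 8.46% of all genes.

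**Figure D5:**
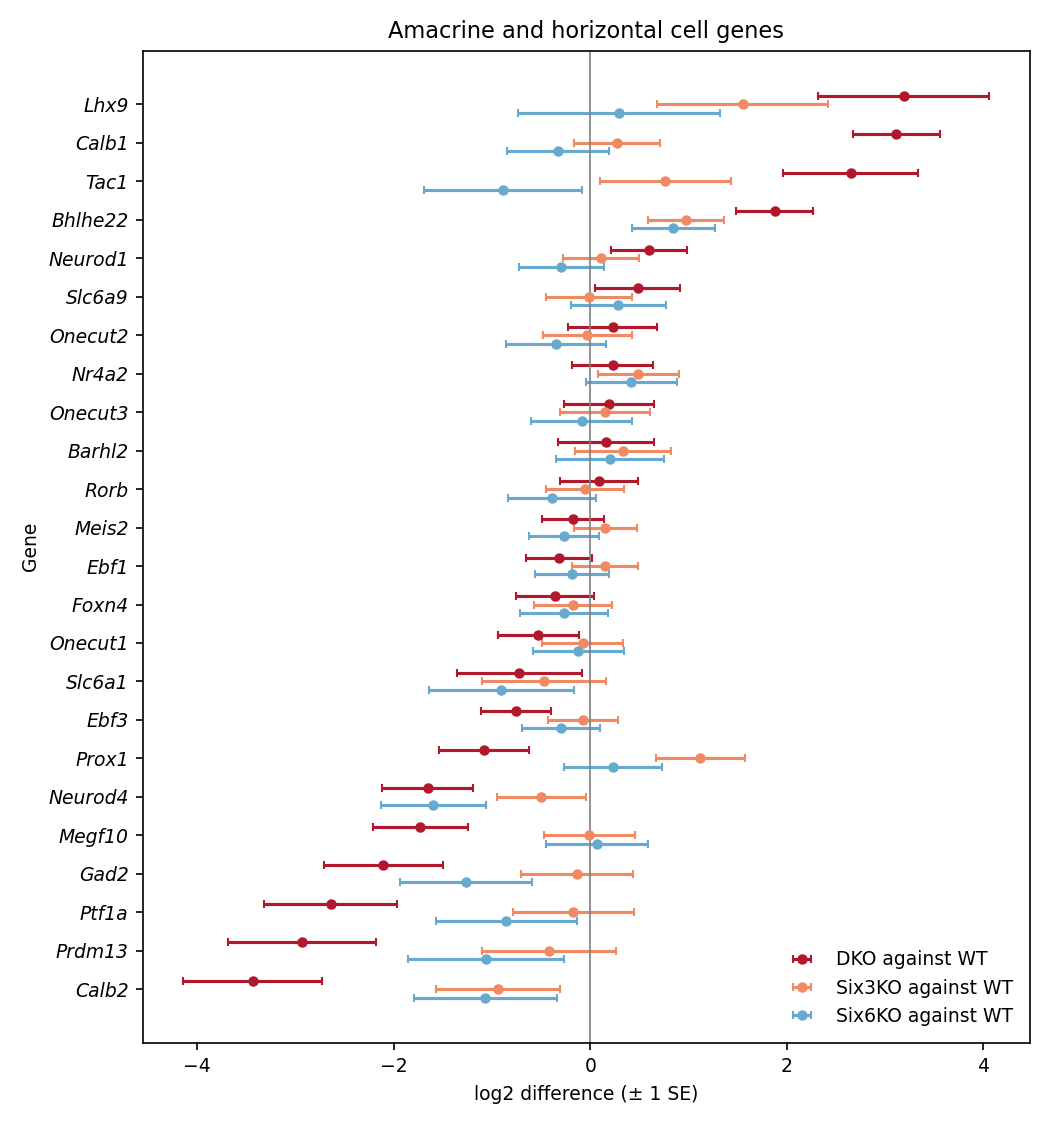
Log2 differences from WT (± 1 SE) of 24 genes of amacrine and horizontal cells in DKO, Six3KO and Six6KO, ordered by the DKO difference. Calb1 (3.12 ± 0.44) passed the test, and Ptf1a, Prdm13 and Calb2 have the lowest DKO estimates without passing it.

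The 9 cofactors and inhibitors of AP-2 proteins tested had a median difference of 0.11 in DKO against WT, and none passed edgeR's test. Cited2, a coactivator that links AP-2 proteins to p300, averaged 64.2 ± 11.4 CPM in DKO libraries, against 40.0 ± 3.24 CPM in WT (0.68 ± 0.16, adjusted p = 0.0893). The inhibitors Kctd1 and Kctd15 differed by 0.39 ± 0.11 (adjusted p = 0.136) and 0.37 ± 0.11 (adjusted p = 0.174) in edgeR's test. These 3 were the only ones of the 9 with an unadjusted p under 0.05 and without overlap between DKO and WT, all on the high side, where 5.47% and 9.03% of all genes lay. DESeq2 called 2 of the 9 as higher, against 2.33% of all genes. The acetyltransferases Ep300 and Crebbp differed by 0.11 and −0.01.

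Genes reported as AP-2 targets in other tissues, mainly epithelial and melanocyte genes, lay mostly below 0, with 13 of 16 tested lower in DKO than in WT by estimate (median −1.31). At an unadjusted p under 0.05, 7 were lower and 1 higher, against 7.53% and 5.47% of all genes. DESeq2 called 3 as lower and 1 as higher, against 3.48% and 2.33%. With no overlap between libraries, 5 lay below WT and 0 above, against 8.46% and 9.03% of all genes. Kit, the receptor for stem cell factor, was the one that passed edgeR's test, which called 0.639% of all genes as lower. It fell to 22.5 ± 4.19 CPM in DKO, against 42.2 ± 3.43 CPM in Six3KO, 34.2 and 56.4 CPM in Six6KO and 54.9 ± 7.66 CPM in WT. Its difference from WT was −1.28 ± 0.20 (adjusted p = 0.0236 in edgeR's test). The call for Kit was lost without any one of DKO libraries rh010 and rh011 or the 3 WT libraries, with adjusted p of 0.0553 to 0.142 and differences of −1.34 to −1.16. It was also lost with the surface ectoderm score in the fit (−1.39, adjusted p = 0.0848 in edgeR's test) and with both scores (−1.35, adjusted p = 0.0787). The keratin Krt8 differed by −4.16 ± 1.00 (adjusted p = 0.0933), and the cell cycle inhibitor Cdkn1a by 2.24 ± 0.69 (adjusted p = 0.178). Cdkn1a was at 12.9, 20.5 and 2.30 CPM in DKO, 16.7 to 36.9 CPM in Six3KO, 11.7 and 16.2 CPM in Six6KO and 1.56 to 3.12 CPM in WT, so 1 DKO library lay among WT while all Six3KO and Six6KO libraries lay above WT. Neither single mutant passed for this gene (adjusted p = 0.999879 and 0.991 in edgeR's test). Of the 16 genes, 1 was higher in Six3KO at an unadjusted p under 0.05, and DESeq2 called 1 as higher there. Of all genes, 2.29% and 0.120% did so. In Six6KO 1 was higher at that p and DESeq2 called 0, against 3.90% and 0.0150% of all genes in either direction. Cdh1, the epithelial cadherin, was at 4.84, 6.21 and 6.18 CPM in DKO, and WT library rh023, poor in surface ectoderm markers, was lower still at 4.05 CPM. Several of these genes are epithelial, and the part of bordering tissue in their values was not tested.

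The list of genes of the neural plate border and neural crest, a setting in which AP-2 factors act early, is reported here in part. Zic1, a zinc finger factor of this list, rose to 341 ± 65.8 CPM in DKO, against 80.5 ± 13.2 CPM in WT (2.08 ± 0.20, adjusted p = 0.00257 in edgeR's test). Zic1 was at 90.3 to 107 CPM in Six3KO and 89.2 and 136 CPM in Six6KO, also above the WT range of 65.3 to 88.9 CPM. No gene of this list passed edgeR's test in either single mutant. The gene is also known in the early retina and optic stalk, and the exons of Zic1 overlap those of Zic4 on the opposite strand. The crest genes Sox10 and Pax3 did not pass, and each was at 0 in 1 DKO library and in 1 other library, WT rh023 for Sox10 and Six3KO rh012 for Pax3. The call for Zic1 held in all 21 alternatives run.

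The genes whose log2 CPM ran most like each member over the 11 libraries were sought among the 11246 tested genes whose mean was 5 CPM or more. For Tfap2a these were Myh14 (r = 0.98), Ppl (0.98), Ctdspl (0.97), Dsp (0.97) and Irx5 (0.96), of which Ppl and Dsp encode the plakins periplakin and desmoplakin of epithelial junctions. With group means removed their r was 0.89 to 0.96. For Tfap2b they were Tns1 (0.97), Tril (0.97), Cacna1c (0.97), Rflnb (0.96) and Cdc42ep3 (0.96), with 0.89 to 0.98 after removal of group means. For Tfap2c they were Lmo3 (0.98), Car5b (0.98), Trps1 (0.95), Slc16a1 (0.95) and Glis3 (0.95), with 0.30 to 0.75.

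Tfap2c was chosen as high in DKO, so a ranking by r over all libraries favours genes that share this difference. The 5 genes most like Tfap2c were high in DKO. Lmo3, a LIM-only transcriptional cofactor, averaged 21.3 ± 7.01 CPM in DKO, 1.52 ± 0.45 CPM in Six3KO, 2.02 CPM in Six6KO and 1.40 ± 0.78 CPM in WT. Car5b, a mitochondrial carbonic anhydrase, averaged 40.0 ± 6.45 CPM in DKO, 1.74 ± 0.42 CPM in Six3KO, 2.75 CPM in Six6KO and 0.720 ± 0.649 CPM in WT. Glis3, a zinc finger factor, averaged 99.8 ± 30.7 CPM in DKO, 25.7 ± 1.73 CPM in Six3KO, 31.1 CPM in Six6KO and 26.1 ± 0.621 CPM in WT. For Trps1 and Slc16a1, which encode a GATA-type repressor and a lactate transporter, the DKO means of 187 and 161 CPM stood against 107 and 79.2 CPM in WT. With group means removed, the r of all 5 with Tfap2c was below that of any of the 10 genes named for Tfap2a and Tfap2b with their own member.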

How the data were processed

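RNA from mouse retinas at E13.5 was sequenced in 11 libraries of 4 genotypes. The deposited file holds raw read counts, with a row for each gene and a column for each library. Per the submitters' processing notes the tools were Trim Galore 0.3.7, TopHat2 2.0.13, HTSeq 0.6.1, Cufflinks 2.2.1 and Cuffdiff, with genome build mm10. DESeq2 is named in the design text for the authors' comparisons. No source used here gives the gene annotation, whether strand was used in counting, or why the file holds 13498 genes. Columns name a genotype and a library (rh010 and so on) but no replicate number.

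Counts were fitted with edgeR 4.0.16 in R 4.3.3: filterByExpr (minimum count 10) left 13292 genes, and 1 robust quasi-likelihood fit with TMM scaling and 4 group means took all 11 libraries. P-values were adjusted over all genes tested. The SE is the size of the log2 difference divided by the square root of F. Scores and correlations used log2 CPM with a prior count of 2. Depth was 7807744 to 16403191 reads, and no pair of replicates agreed within counting error (chi-square divided by its degrees of freedom was 9.58 to 76.8). Positions and exon lengths are from GENCODE vM21 (GRCm38), promoters from RefSeq (GRCm38.p6).

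The members and the 11 gene lists (147 genes, 131 in the table) were chosen with earlier results of these data known. Named genes are the members, Six3 and Six6, the 5 genes most like each member, up to 3 genes of each list with the smallest p, and every called gene of a list; some genes under this rule are not reported here. Other genes named were chosen after their values were seen. Alternatives were other size factors, no low-count filter, only the groups compared, tissue scores as covariates, DESeq2 1.42.0, and each library left out in turn.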

Additional observations from a re-analysis of the deposited data

How the results depend on the processing

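Over 21 alternatives, the 9 differences of Tfap2a, Tfap2b and Tfap2c between DKO and the other groups had the direction reported, and 28 of 189 values moved by more than the spread between replicates, all of them under tissue scores except Tfap2c in DKO against WT without WT library rh016 (4.52). Against WT, with the mesenchyme score, the surface ectoderm score and both, Tfap2a was at −1.55, −1.33 and −1.34, Tfap2b at −1.46, −1.74 and −1.68 and Tfap2c at 4.61, 4.68 and 4.66. Against Six3KO, in the same order of scores, Tfap2a was at −1.64, −1.50 and −1.50, Tfap2b at −0.93, −1.14 and −1.19 and Tfap2c at 4.23, 4.25 and 4.26. Against Six6KO Tfap2a was at −0.58, −0.87 and −0.79, Tfap2b at −0.34, −1.05 and −0.19 and Tfap2c at 3.91, 3.75 and 3.85. In the single mutants no member passed in any alternative (lowest adjusted p 0.642), and Tfap2a in Six3KO turned to −0.58 without libraries rh026 and rh020. Leaving out 1 library at a time gave Tfap2a in Six3KO against WT −0.58 to 0.69, Tfap2b −0.92 to 0.67 in Six3KO and −1.05 to 0.42 in Six6KO, and, in DKO against WT, Tfap2a −3.57 to −2.76, Tfap2b −3.79 to −2.31 and Tfap2c 3.66 to 4.52.

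Called amacrine and horizontal transcription factors were 1 higher with no TMM factor, with only the groups compared and without rh026 and rh020, and 2 higher with DESeq2. Lower calls were 3 with the mesenchyme score, 1 without rh026 and rh020 and 3 with DESeq2, and leaving out 1 library gave 0 to 1 higher and 0 to 2 lower. For transmitter and surface genes, higher calls were 0 with the surface ectoderm score and with both scores and 2 with DESeq2. Lower calls were 1 with no TMM factor, the lens score and without rh026 and rh020, 2 with the mesenchyme score and 3 with DESeq2, and leaving out 1 library gave 0 to 1 higher and 0 to 2 lower. With the mesenchyme score, the surface ectoderm score and both, the differences of Snai2 (0.069, 0.22 and 0.12), Tyr (1.28, 1.22 and 1.14), Mlana (1.17, 1.06 and 1.21) and Slc45a2 (1.05, 0.79 and 1.08) turned above 0. Genes called in DKO against WT numbered 20 to 773, with 172 as reported, 27 with the surface ectoderm score, 71 with both scores, 270 with the mesenchyme score, 773 with DESeq2 and 20 to 279 without 1 library. The cause of these changes was not tested.

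No paired analysis was possible because the columns carry library names and no replicate number, so the planned fit with a replicate block was not run. Groups of 2 or 3 libraries limit the calls, and the lowest member level, Tfap2a in DKO, rests on 9 to 31 reads.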

Other observations

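With group means removed, the genes most like each member in log2 CPM over the 11 libraries were sought again. For Tfap2a they were Itgb4 (r = 0.99), Mpzl2 (0.97), Dsg2 (0.97), Trp63 (0.97) and Wnt6 (0.97), of which Itgb4 and Dsg2 encode proteins of hemidesmosomes and desmosomes. For Tfap2b they were Tns1 (0.98), Gfpt2 (0.98), Col12a1 (0.94), Fam69b (0.94) and Cacna1c (0.94), of which Tns1 and Col12a1 encode tensin 1 and a fibril-associated collagen. For Tfap2c they were Kif26b (0.92), Vegfc (0.91), Dolk (0.90), Mief2 (0.87) and Tm7sf3 (0.87). For Tfap2a and Tfap2c none of these was among the 5 genes most like the member over all libraries, and for Tfap2b Tns1 and Cacna1c were. Values are descriptions of 11 libraries that share their group structure and tissue makeup, and the genes were picked by these same correlations.

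The neural plate border list, with group means removed, had r = 0.86 with Tfap2a, 0.59 with Tfap2b and 0.76 with Tfap2c.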
